A study of Mus musculus with 5 samples.

Results

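The type II keratin cluster on mouse chromosome 15 was taken as all protein-coding genes of GENCODE M21 whose transcription start site (TSS) lies in chr15:101347444-102032027 of mm10, which gave 29 of 21755 genes. It was chosen from the covered lengths of the same 4 peak lists described here, so the difference between genotypes is given as a description and without a test. H3K27me3, the trimethylation of lysine 27 on histone H3, was profiled by ChIP-seq in dermal fibroblasts of mouse embryos at E18.5, expanded in culture in AmnioMAX medium, from mice of a C57BL/6 background. In the conditional knockout (Kdm6b-cKO) a Twist2-Cre driver, also called Dermo1Cre, deleted the floxed Kdm6b fl/fl alleles, and it acts in the mesenchyme that gives rise to dermal fibroblasts and not in keratinocytes. The control libraries are labelled WT, and the labels state a sort for GFP as a sign of the knockout for every sample, WT included. There were 2 Kdm6b-cKO libraries, replicates 3 and 4, and 2 WT libraries, replicates 7 and 9. The labels do not say whether these came from separate embryos, so the spread between them may be technical. Read counts are not part of the peak lists. The depth of each value is therefore unknown, and no counting interval can be given.

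Keratins are the intermediate filament proteins of epithelia, and each filament is built from pairs of a type I and a type II chain. In mammals nearly all type II genes stand side by side in a single cluster, in which the hair keratins, the inner root sheath keratins of the hair follicle, the epidermal keratins and the keratins of simple epithelia form neighbouring groups. Dermal fibroblasts are not epithelial cells and are known for vimentin filaments in place of keratin filaments. H3K27me3 is placed by Polycomb repressive complex 2 on genes that are kept silent, often over long domains, and Kdm6b (also named Jmjd3) codes for an enzyme that takes it off again. The comparison asks how far the mark extends along the cluster in fibroblasts without this enzyme. Of the 29 genes, 26 carry a keratin symbol, among them Krt18, a type I chain that lies beside its partner Krt8, and the other 3 are Gm49425, Gm5414 and Gm5478.

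The DNA directly upstream of 6 genes is shown. In the WT pair the mean covered share of the promoters in their keratin classes ranged from 0.311% (inner root sheath) to 39.2% (simple-epithelial). In the Kdm6b-cKO pair these class means were closer, from 61.3% (epidermal and other stratified) to 80.0% (simple-epithelial). Krt5 does not stand for its class, as its own promoter was covered over 7.56% in the Kdm6b-cKO pair. RefSeq held a promoter entry for 17 of the 29 genes, on GRCm38.p6, the assembly behind mm10, and 12 had no entry. Each stretch ends at the RefSeq start or at the first annotated exon base before it, and capitals mark the CpG dinucleotides and the letters TATAAA, searched on both strands (TTTATA on the other). Krt18 (simple epithelium, chr15:102027966-102028179, plus strand) comes before Krt71, Krt72 and Krt73 (inner root sheath, chr15:101743110-101743347, chr15:101786521-101786770 and chr15:101802361-101802610, minus strand), Krt82 (hair, chr15:101550668-101550909, minus strand) and Krt5 (basal epidermis, chr15:101712906-101713155, minus strand).
Krt18: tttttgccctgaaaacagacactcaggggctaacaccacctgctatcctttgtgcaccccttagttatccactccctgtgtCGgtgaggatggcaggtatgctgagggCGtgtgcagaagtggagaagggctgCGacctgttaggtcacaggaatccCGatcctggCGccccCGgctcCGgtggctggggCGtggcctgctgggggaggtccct
Krt71: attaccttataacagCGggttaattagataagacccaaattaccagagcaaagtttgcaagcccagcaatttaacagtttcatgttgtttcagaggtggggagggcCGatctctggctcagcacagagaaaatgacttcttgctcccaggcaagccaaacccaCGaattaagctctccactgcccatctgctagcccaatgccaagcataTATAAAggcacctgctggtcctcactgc
Krt72: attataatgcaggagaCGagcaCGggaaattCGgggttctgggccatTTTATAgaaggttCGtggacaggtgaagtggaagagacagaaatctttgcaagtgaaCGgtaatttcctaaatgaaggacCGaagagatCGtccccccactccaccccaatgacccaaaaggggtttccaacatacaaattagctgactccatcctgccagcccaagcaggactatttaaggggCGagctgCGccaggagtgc
Krt73: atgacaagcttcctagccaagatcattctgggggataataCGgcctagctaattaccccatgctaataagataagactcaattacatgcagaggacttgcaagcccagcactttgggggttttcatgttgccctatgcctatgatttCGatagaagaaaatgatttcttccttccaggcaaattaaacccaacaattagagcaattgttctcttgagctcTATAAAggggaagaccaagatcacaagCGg
Krt82: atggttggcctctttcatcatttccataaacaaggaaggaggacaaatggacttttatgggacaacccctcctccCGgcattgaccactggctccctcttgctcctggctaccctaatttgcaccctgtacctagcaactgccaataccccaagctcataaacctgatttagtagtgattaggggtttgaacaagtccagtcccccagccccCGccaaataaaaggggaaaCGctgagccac
Krt5: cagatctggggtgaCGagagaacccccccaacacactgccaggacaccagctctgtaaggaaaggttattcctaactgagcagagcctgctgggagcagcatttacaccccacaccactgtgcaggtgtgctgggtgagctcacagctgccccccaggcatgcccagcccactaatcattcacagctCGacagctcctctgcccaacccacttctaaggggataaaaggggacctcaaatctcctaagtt

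The Krt18 stretch held 8 CpG in 214 bases, or 3.74 per 100 bases, and Krt72 held 9 in 250. Krt71, Krt73 and Krt82 held 3 CpG each and Krt5 held 2. Krt18 does not stand for all simple-epithelial genes here. The Krt8 stretch, cut in the same way and not shown, held 0 CpG in 110 bases. Over the full 250 upstream bases Krt7 held 16 CpG, Krt18 12 and Krt8 3. TATAAA began 40 bases before the RefSeq start in Krt71 and 30 bases before it in Krt73, and in Krt72 the letters lay on the other strand, 203 bases before the start. Over the full 250 upstream bases the motif was present in 6 of 17 cluster genes, or 35.3%, and in 12.4% of 32851 RefSeq promoters. Besides the inner root sheath genes these were Krt76, Krt84 and Gm5414. A match of letters is a description and not evidence of a bound factor.

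H3K27me3 peaks covered far more of the cluster in the Kdm6b-cKO pair than in WT fibroblasts. Of the 685 kb from the start of Krt80 to the end of Krt18, peaks covered 301 and 300 kb in Kdm6b-cKO replicates 3 and 4 and 92.7 and 64.2 kb in WT replicates 7 and 9. The covered share was 43.9% ± 0.0642 in the Kdm6b-cKO pair and 11.5% ± 2.94 in the WT pair (SD, n = 2 each), a ratio of 3.83. Both Kdm6b-cKO libraries lay above both WT libraries. In this total the Kdm6b-cKO libraries differed from each other by less than the WT libraries did. The Kdm6b-cKO pair shared 63.1% of the length that either of its libraries covered, and the WT pair 49.5%. In a bulk culture, more cells that carry the mark and more of the mark in each cell cannot be told apart.

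The mark also covered more of the whole genome in the Kdm6b-cKO lists. Peaks took up 5.63% and 4.70% of the autosomes and the X chromosome in the Kdm6b-cKO pair and 3.47% and 2.34% in the WT pair, a ratio of 1.78, and 2.14 for chromosome 15. Divided by the genome-wide share of the same library, the share of the cluster was 7.81 and 9.33 in the Kdm6b-cKO pair and 3.90 and 4.01 in the WT pair. This ratio was above 1 in every library and higher in both Kdm6b-cKO libraries. With a −log10 q of at least 5 it was 0.848 in WT replicate 9, below the genome-wide share, and stayed above 1 in the other libraries. In the 500 kb before the cluster 15.6% and 17.0% were covered in the Kdm6b-cKO pair and 9.87% and 6.78% in the WT pair, while in the 500 kb after it the knockout values were 3.60% and 2.59% and the WT values 0.944% and 0.510%. The ratio of the group means was 1.96 before the cluster and 4.25 after it.

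**Figure D1:**
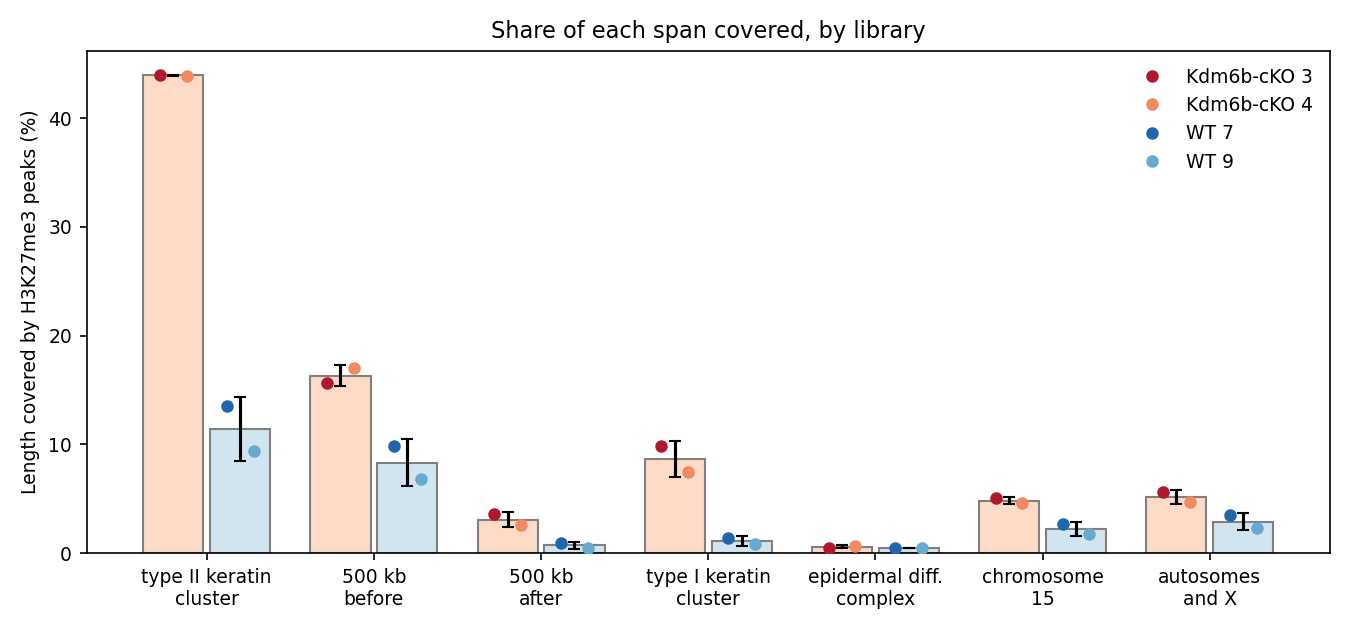
Share of the type II keratin cluster, its 500 kb flanks, the type I keratin cluster, the epidermal differentiation complex, chromosome 15 and the autosomes with the X chromosome (horizontal axis) covered by H3K27me3 peaks, in percent (vertical axis). Bars are means of 2 libraries, error bars are the SD and points are libraries, and the Kdm6b-cKO bar of the type II cluster at 43.9% stands above all other bars.

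Other keratinocyte loci of the genome were covered to a smaller extent. The type I keratin cluster on chromosome 11 was covered to 9.81% and 7.49% in the Kdm6b-cKO pair and to 1.43% and 0.805% in the WT pair, and both Kdm6b-cKO libraries lay above both WT libraries there too. From this low WT share, the ratio between the genotypes was 7.75, larger than the 3.83 of the type II cluster. Divided by the genome-wide share of the same library, the values were 1.74 and 1.59 against 0.412 and 0.345. The epidermal differentiation complex on chromosome 3, which holds genes of the cornified envelope, was covered to 0.509% and 0.680% in the knockout lists and to 0.506% and 0.452% in the WT lists. Its values were thus close to each other in all libraries and far below the genome-wide share. The protein-coding genes just outside the cluster, 6030408B16Rik before it and Eif4b after it, had no covered promoter base in any library. Just inside, the promoter of Krt80 was also uncovered and that of Krt18 was covered in every library.

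The added coverage came as more and longer peaks. The cluster held 77 peaks in each Kdm6b-cKO library and 37 and 31 in the WT pair. Their median length was 2020 and 2351 bp in the Kdm6b-cKO pair and 1119 and 1170 bp in the WT pair, while over the genome the knockout values were 1461 and 1337 bp and the WT values 1323 and 1249 bp. Peaks longer than 5 kb numbered 19 in each Kdm6b-cKO library and 5 and 2 in the WT pair. The median fold enrichment over background that the authors' peak caller gave was 2.85 and 2.88 in the Kdm6b-cKO pair and 2.93 and 3.07 in the WT pair. This median covers more peaks in the knockout lists. At promoters with a peak in every library, the enrichment was either higher in both Kdm6b-cKO libraries or overlapped between the groups. The enrichment at Krt8 was 3.94 and 3.84 in the Kdm6b-cKO pair against 3.56 and 3.22 in the WT pair. At Krt77 it was 3.74 and 3.72 against 2.93 and 2.98. It was also higher in both Kdm6b-cKO libraries at Krt1, Krt18 and, by a small margin, Krt7. At Krt87, Krt81 and Gm49425 the groups overlapped, as with 4.06 and 3.79 against 3.69 and 4.07 at Krt87.

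Nearly all of the WT mark lay inside the Kdm6b-cKO mark. The WT pair had 52.0 kb in common, and 97.3% of this length carried peaks of the Kdm6b-cKO pair as well. In the other direction, the Kdm6b-cKO pair had 233 kb in common, of which 21.7% belonged to the length common to the WT pair. A length of 139 kb, or 59.6%, was covered in both Kdm6b-cKO libraries but in no WT library, and 62.3% of it lay within 5 kb of a WT peak. WT peaks outside of both Kdm6b-cKO lists added up to 3.26 kb. Joined over the 4 lists, the peaks of the cluster formed 81 regions, of which 13 held peaks of all libraries, 27 held peaks of both Kdm6b-cKO libraries alone, none held both WT libraries alone and 41 had a mixed make-up.

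The longest region spanned Krt1 and Krt77. It ran from chr15:101833852 to 101878968, 45.1 kb, and was covered over 42.9 and 42.5 kb in the Kdm6b-cKO pair and 28.4 and 27.04 kb in the WT pair. The next, at chr15:101421916-101445313 around Krt87, was covered over 20.2 and 21.1 kb in the knockout lists and over 15.1 and 9.08 kb in the WT lists. Among the regions seen in both Kdm6b-cKO libraries alone, the longest was chr15:101483124-101495387 around Krt83, with 10.3 and 11.2 kb, followed by chr15:101797009-101806596 around Krt73, with 7.77 and 8.61 kb. Peaks of all libraries were thus found in the longest regions, but not always over much of their length. The region around Krt4, 22.9 kb long, had 5.54 and 2.04 kb covered in the WT pair, and that around Krt76, 13.7 kb long, 1.34 and 0.316 kb.

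**Figure D2:**
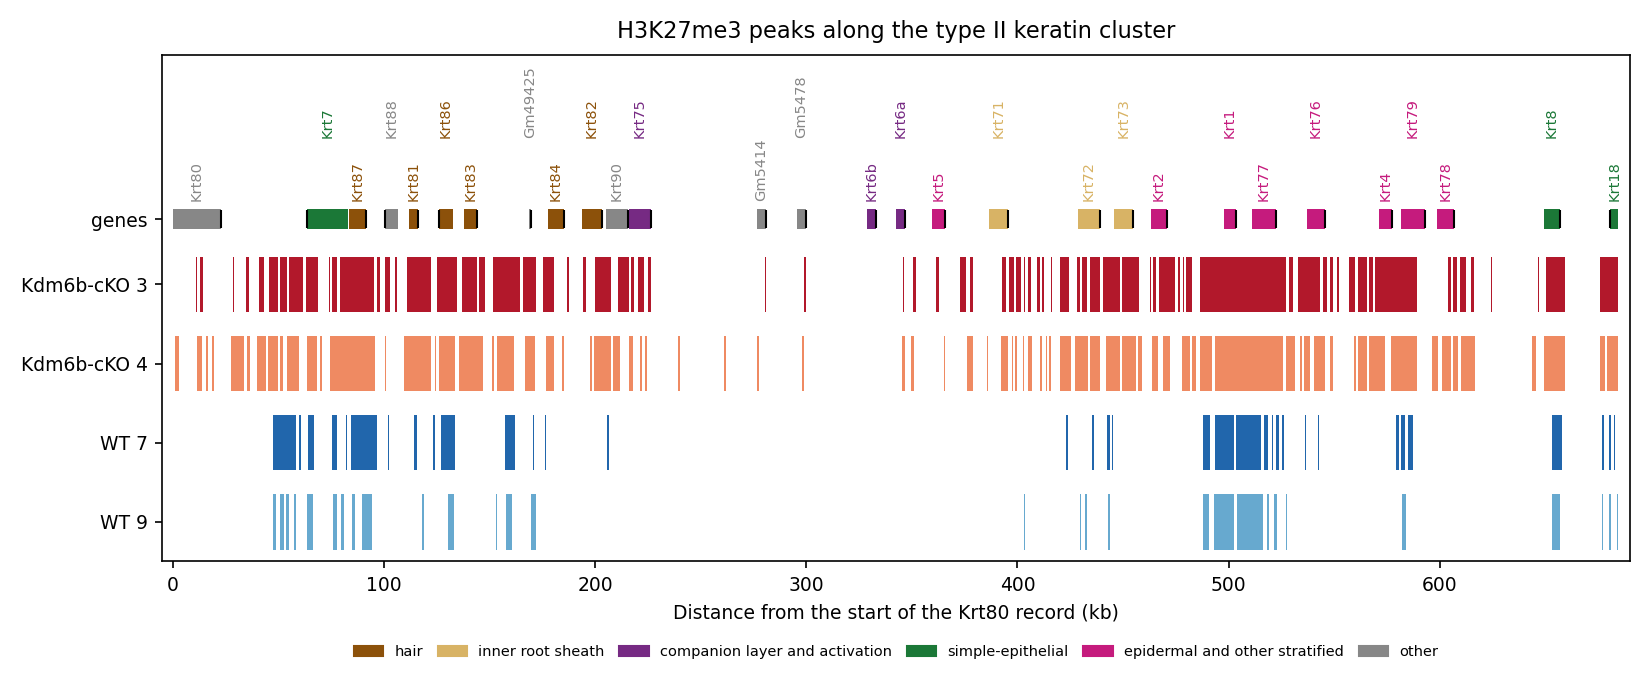
H3K27me3 peaks of the 4 libraries along the type II keratin cluster, drawn to scale as filled blocks against the distance from the start of the Krt80 record in kb (horizontal axis), with the genes coloured by keratin class and a black line at each TSS. Kdm6b-cKO peaks fill much of the cluster on both sides of a nearly empty middle stretch from Gm5414 to Krt5, and WT peaks cover shorter parts of the same regions.

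Coverage was uneven along the chromosome. From Krt87 to Krt82, the hair keratin stretch, 64.2% and 56.5% was covered in the Kdm6b-cKO pair and 23.1% and 13.0% in the WT pair. From Krt71 to Krt73, the inner root sheath stretch, 54.0% and 54.5% was covered in the Kdm6b-cKO pair and 5.73% and 4.17% in the WT pair. From Krt2 to Krt78, which holds epidermal and mucosal keratins, the knockout shares were 71.4% and 68.2% and the WT shares 24.6% and 20.5%. Both Kdm6b-cKO libraries lay above both WT libraries in each stretch.

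The middle of the cluster stood apart. From Gm5414 to Krt5, 88.9 kb that hold the activation keratins Krt6a and Krt6b, 5.55% and 5.41% was covered in the Kdm6b-cKO pair and nothing in the WT pair. The longest stretch without a peak was 45.9 and 46.5 kb in the Kdm6b-cKO pair and held the starts of Gm5478 and Krt6b in both libraries. In WT it was 208 kb in replicate 7, with 8 gene starts from Krt90 to Krt71, and 231 kb in replicate 9, with 10 gene starts from Krt84 to Krt71. The end stretches of the cluster held the mark in all 4 libraries, although the outermost gene Krt80 itself held none in the WT pair. From Krt80 to Krt7, 38.9% and 53.0% was covered in the Kdm6b-cKO pair and 21.2% and 13.2% in the WT pair, and from Krt8 to Krt18 the knockout shares were 50.5% and 49.8% and the WT shares 19.9% and 15.4%.

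At the gene starts, a promoter was taken as the TSS ± 3 kb, a window of 6001 bp, and called marked when peaks covered at least 500 bp of it. Of the 29 promoters, 25 were marked in each Kdm6b-cKO library, 11 in WT replicate 7 and 8 in WT replicate 9. Marked in both Kdm6b-cKO libraries but in no WT library were 13 of 29, against 4.28% of all protein-coding genes. Marked in all 4 libraries were 8 of 29, against 15.1%. Covered promoter length was higher in both Kdm6b-cKO than in both WT libraries at 24 of 29 genes, against 14.5% of all genes, and lower at none of the 29. For the gene bodies, from gene start to gene end, this count was 28 of 29, against 18.6%. Since the cluster was chosen from this contrast, nothing is read from these shares. Averaged over the 29 genes, 60.6% and 51.9% of the promoter was covered in the Kdm6b-cKO pair and 16.2% and 11.7% in the WT pair, and over all genes the knockout values were 16.0% and 14.9% and the WT values 11.6% and 9.33%.

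These counts depended on how many peaks of each list were used. Ranked by the caller's −log10 q and cut to the strongest peaks that add up to 61.5 Mb in every library, the lists covered 16.1% and 18.9% of the cluster in the Kdm6b-cKO pair and 7.81% and 9.38% in the WT pair. The ratio to the genome-wide share stayed above both WT values in both Kdm6b-cKO libraries. The promoters marked in both Kdm6b-cKO libraries but in no WT library went from 13 to 1, and those with both Kdm6b-cKO libraries above both WT libraries from 24 to 7. The difference between group means was above 0 at 11 of the 29 promoters and 0 at the other 18.

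**Figure D3:**
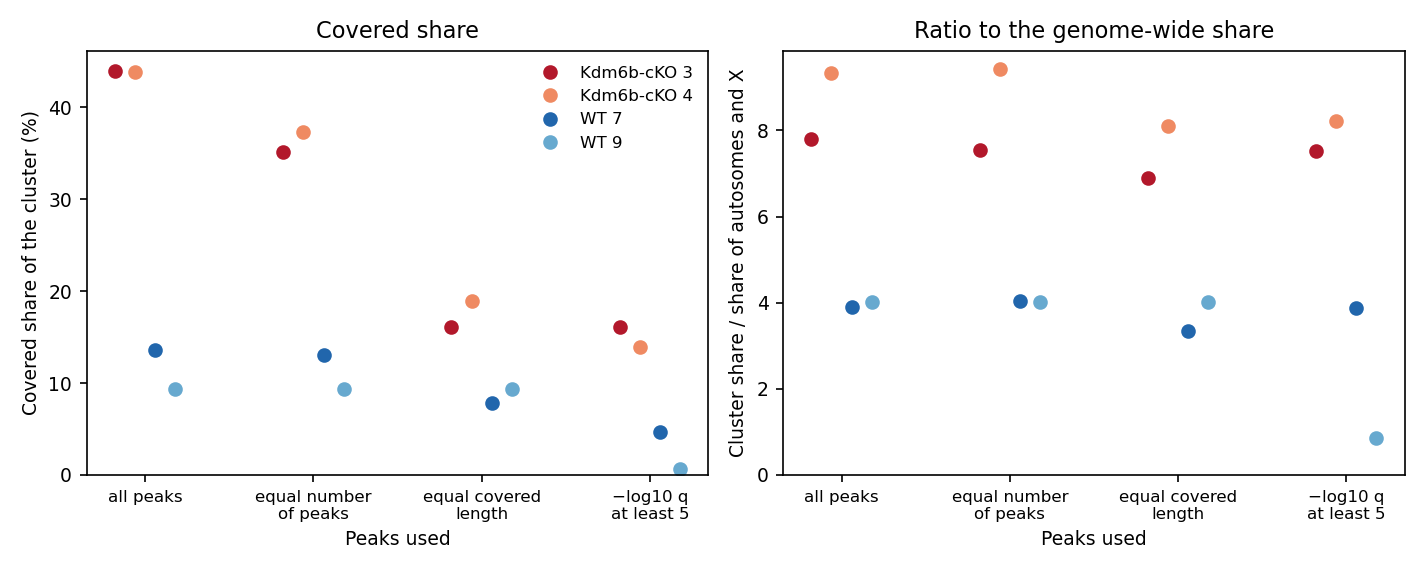
Covered share of the type II keratin cluster in percent (left, vertical axis) and its ratio to the share of the autosomes and the X chromosome (right, vertical axis), for each library with all peaks, with the strongest peaks in equal number or equal covered length, and with peaks of −log10 q of at least 5 (horizontal axis). Each point is a library, and the Kdm6b-cKO points lie above the WT points in every setting, at 16.1% and 18.9% against 7.81% and 9.38% with equal covered length.

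The simple-epithelial keratins were marked in all 4 libraries. Krt8 and Krt18 form the filaments of single-layered epithelia and Krt7 those of many ducts and glands. At Krt8 (chr15:101996698-102004482) peaks covered 5.40 and 5.22 kb of the promoter in the Kdm6b-cKO pair and 3.75 and 2.72 kb in the WT pair, which is 88.5% ± 2.203 and 53.9% ± 12.2 (SD, n = 2 each). At Krt18 (chr15:102028180-102032027) they covered 6.001 and 4.92 kb in the knockout lists and 1.35 and 1.17 kb in the WT lists, or 91.0% ± 12.7 and 21.0% ± 2.17. Krt7 ranged from 2.49 to 4.36 kb over the 4 libraries, and its difference of 17.7 points was 5.47 points without Kdm6b-cKO replicate 3 and 29.9 points without Kdm6b-cKO replicate 4. All 3 were covered further in each Kdm6b-cKO library than in either WT library, by a small margin in Krt7. At TSS ± 1 kb this order was lost at Krt7, with 44.3% in Kdm6b-cKO replicate 4 and 45.8% in WT replicate 9. The Krt7 difference was 35.6 points at TSS ± 5 kb and 31.02 points with all transcript starts. With a −log10 q of at least 5, none of the 3 promoters held a covered base in WT replicate 9, nor did Krt18 in WT replicate 7.

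Hair keratins, the hard keratins of the hair shaft, were covered in the Kdm6b-cKO pair over 77.2% and 78.8% of their 6 promoters on average and in the WT pair over 31.2% and 15.6%. Krt82, a keratin of the hair cuticle, had the largest difference of all 29 genes with all peaks and libraries, at 93.7 points of the covered share. Its promoter was covered over 6.001 kb in each Kdm6b-cKO library and over 0.759 kb in WT replicate 7, and was uncovered in WT replicate 9. Krt83 of the hair cortex followed with 5.03 and 5.85 kb in the Kdm6b-cKO pair and no covered base in the WT pair. Both genes were thus nearly or fully covered in the knockout lists and nearly or fully free in the WT lists. Without Kdm6b-cKO replicate 3 the difference at Krt83, 97.4 points, was the larger, and without Kdm6b-cKO replicate 4 that at Krt2, a full 100 points. With lists of equal covered length, and with a −log10 q of at least 5, neither the Krt82 nor the Krt83 promoter held a covered base in any library, and Krt77 had the largest difference. The hair class difference of 54.6 points was then 15.1 and 19.8 points.

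Krt81 and Krt86, also keratins of the hair cortex, were not free of the mark in the WT pair. The Krt81 promoter was covered over 6.001 kb in each Kdm6b-cKO library and over 1.37 and 1.17 kb in the WT pair, and was marked in all 4 libraries. The Krt86 promoter had 3.90 and 3.37 kb in the Kdm6b-cKO pair, 3.09 kb in WT replicate 7 and none in WT replicate 9. WT replicate 7 was here close to the Kdm6b-cKO libraries, and without WT replicate 7 the difference in covered share rose to 60.6 points while without WT replicate 9 it was 9.11 points. In every library Krt87 was covered over at least as much of its promoter as any other gene of the cluster, at 4.43 to 6.001 kb, and its groups overlapped, because WT replicate 7 was fully covered like both Kdm6b-cKO libraries. The difference at Krt87 was 0 without WT replicate 9 and 26.1 points without WT replicate 7. Krt84, a hard keratin known from the tongue, was at 0 in both WT libraries and reached at most 1.13 kb in the Kdm6b-cKO pair.

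All 3 inner root sheath keratins were marked in both Kdm6b-cKO libraries alone. They build the sheath that moulds the growing hair. At Krt73 (chr15:101793308-101802346) 5.54 and 5.02 kb of the promoter was covered in the Kdm6b-cKO pair and none in the WT pair. At Krt71 (chr15:101733949-101743109) the lengths were 4.16 and 3.19 kb in the Kdm6b-cKO pair, again with none in the WT pair. Krt72 had 4.35 and 3.10 kb in the Kdm6b-cKO pair, 0.112 kb in WT replicate 7 and none in WT replicate 9. As a class they were covered over 70.4% ± 10.8 of the promoter in the Kdm6b-cKO pair and 0.311% ± 0.440 in the WT pair, the lowest WT value among the classes with any mark in the WT pair.

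The inner root sheath peaks were weaker than those at the simple-epithelial genes. The highest −log10 q of a peak at these promoters lay between 2.86 and 3.19 in Kdm6b-cKO replicate 3 and between 3.37 and 3.74 in replicate 4, against 5.22 to 7.35 and 5.07 to 6.77 at the simple-epithelial promoters. Among all peaks of their own list they stood at percentiles 40.4 to 56.5 in replicate 3 and 66.4 to 76.2 in replicate 4. With equal numbers of peaks, the Krt71 and Krt73 promoters held no covered base in Kdm6b-cKO replicate 3. The class then stood at 24.1% in Kdm6b-cKO replicate 3 and 56.1% in replicate 4. With lists of equal covered length, which kept Kdm6b-cKO peaks from a −log10 q of 4.76 in replicate 3 and 4.12 in replicate 4, no base of an inner root sheath promoter was covered in any library. The simple-epithelial class then still stood at 82.997% and 70.4% in the Kdm6b-cKO pair and 37.3% and 36.2% in the WT pair. The difference of the inner root sheath class thus rested on peaks below these limits.

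The companion layer and activation keratins carried little of the mark at their promoters. Krt75 (chr15:101563345-101573904) is the keratin of the companion layer between the inner and the outer root sheath. Its promoter was covered over 1.25 and 0.922 kb in the Kdm6b-cKO pair and over none in the WT pair. More of its gene body was covered, 51.5% and 32.6% in the Kdm6b-cKO pair and none in the WT pair. For the Krt6a gene body the Kdm6b-cKO values were 15.2% and 24.6%, again with none in the WT pair. The promoter of Krt6a, which keratinocytes switch on after wounding, ranged from 0 in the WT pair to 1.36 kb in Kdm6b-cKO replicate 4. Krt6b was uncovered in promoter and gene body in all libraries. Of the 50-base words in the promoters of these genes, 23.8% in Krt6a and 24.6% in Krt6b occurred again elsewhere in the cluster, the highest values of the 29 genes. The part of such copies in the missing coverage was not tested. The class mean over the promoters was 10.6% and 12.6% in the Kdm6b-cKO pair and 0 in both WT libraries.

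By their promoters, epidermal and other stratified keratins split into genes marked everywhere, genes marked in the knockout lists and genes with little mark. Krt1 (chr15:101845426-101850794), the type II keratin of the suprabasal epidermis, had its promoter covered over 6.001 kb in each Kdm6b-cKO library and over 4.81 and 4.34 kb in the WT pair. Its neighbour Krt77, also a suprabasal keratin, had 6.001 kb in each Kdm6b-cKO library and 1.81 and 1.16 kb in the WT pair. A single peak of each Kdm6b-cKO library reached over the starts of both genes, 41.0 kb long in replicate 3 and 32.2 kb in replicate 4. Both genes were marked in all 4 libraries, but the gap between the genotypes was 23.8 points of the covered share at Krt1 and 75.3 points at Krt77. Their order turned at TSS ± 1 kb, with 71.3 points at Krt1 and 57.05 points at Krt77, and with all transcript starts Krt1 was fully covered in every library.

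Krt2, Krt76 and Krt78 were marked in both Kdm6b-cKO libraries alone. Krt2, a keratin of the uppermost living epidermal layers, had 6.001 and 3.20 kb in the Kdm6b-cKO pair and none in the WT pair. Krt78 had 3.99 and 3.64 kb and none in the WT pair. Krt76, known from the palate, had 3.68 and 3.801 kb in the Kdm6b-cKO pair, 0.483 kb in WT replicate 7 and none in WT replicate 9. With lists of equal covered length, and with a −log10 q of at least 5, Krt2 and Krt76 held no covered promoter base in any library. Krt78 was then covered in Kdm6b-cKO replicate 4 alone, over 34.8%. Krt4, a mucosal keratin of the oesophagus, had 6.001 and 3.66 kb in the Kdm6b-cKO pair, 1.08 kb in WT replicate 7 and none in WT replicate 9, so that its WT libraries fell on both sides of the 500 bp limit.

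Krt5 (chr15:101707070-101712898), the type II keratin of basal keratinocytes, was nearly free of the mark at its promoter. There 0.165 and 0.742 kb was covered in the Kdm6b-cKO pair and none in the WT pair. This difference of 7.56 points was 2.75 points without Kdm6b-cKO replicate 4. The Krt5 gene body was covered over 19.1% and 5.03% in the Kdm6b-cKO pair and over none in the WT pair. Krt79, known from the upper hair follicle, had no covered promoter base in any library, yet 67.6% and 68.3% of its gene body was covered in the Kdm6b-cKO pair and 35.6% and 18.6% in the WT pair. Krt80, the outermost gene on the Krt7 side, likewise had an uncovered promoter, with 10.5% and 27.1% of the gene body covered in the Kdm6b-cKO pair and none in the WT pair. Krt80, Krt79 and Krt6b had an unmarked promoter in all 4 libraries, by the start of the gene record. With the most covered of all annotated transcript starts, Krt79 was covered over the whole window in each Kdm6b-cKO library and over 57.9% and 34.0% in the WT pair, and Krt80 over 31.5% in Kdm6b-cKO replicate 4, so those calls depend on the start used.

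**Figure D4:**
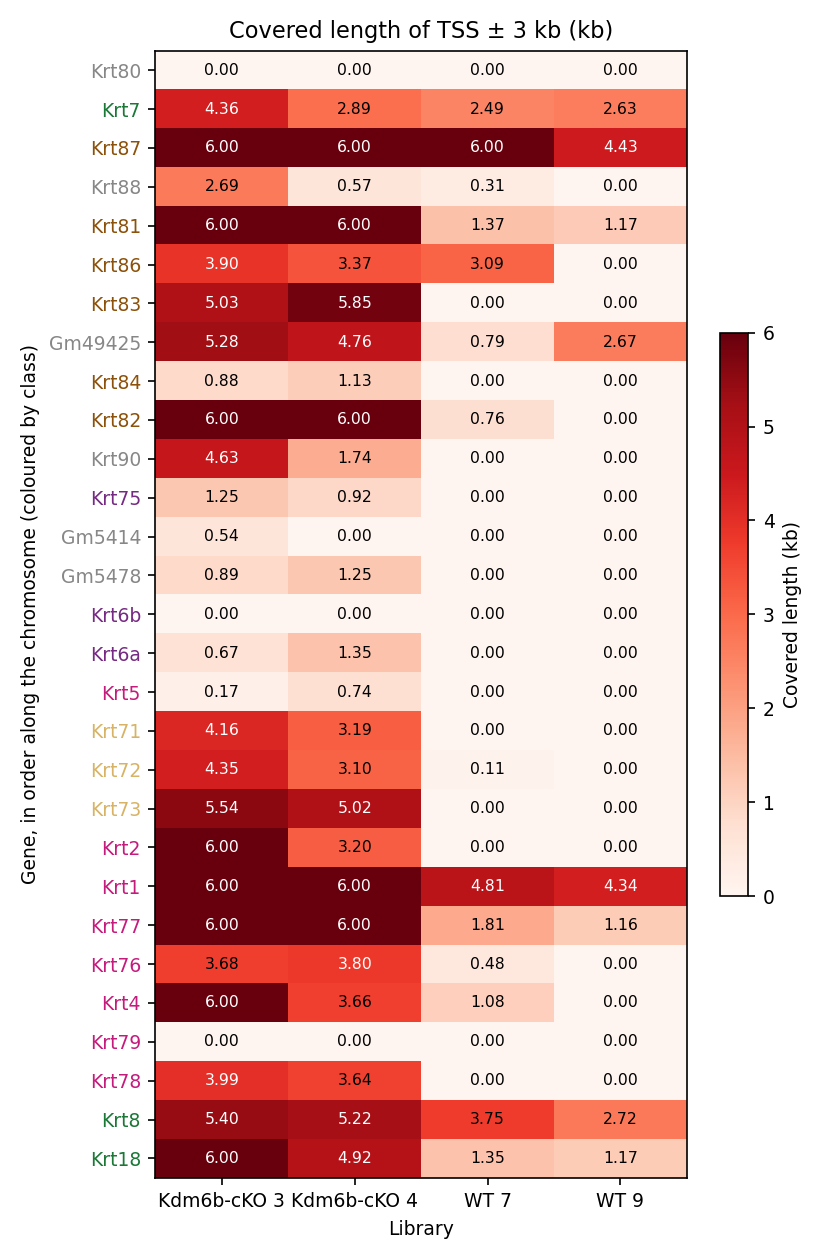
Covered length of TSS ± 3 kb in kb (colour and printed value) for the 29 genes of the cluster in chromosome order (vertical axis, names coloured by keratin class) in each of the 4 libraries (horizontal axis). Both Kdm6b-cKO columns are dark for most hair, inner root sheath, epidermal and simple-epithelial genes, while in the WT columns Krt87, Krt1 and Krt8 stand out and most others are pale.

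The remaining genes have less well known roles. Gm49425 had 5.28 and 4.76 kb of its promoter covered in the Kdm6b-cKO pair and 0.794 and 2.67 kb in the WT pair and was marked in all 4 libraries. Krt90 had 4.63 and 1.74 kb in the Kdm6b-cKO pair and none in the WT pair. The Krt88 promoter had 2.69 and 0.575 kb in the Kdm6b-cKO pair, 0.306 kb in WT replicate 7 and none in WT replicate 9. In Krt90 and Krt88 the Kdm6b-cKO libraries differed from each other by more than 2 kb, so the size of their difference rests on replicate 3. Without Kdm6b-cKO replicate 3 it was 28.9 points of the covered share in Krt90 and 7.03 points in Krt88, against 53.0 and 24.6 with all libraries. Gm5478 had 0.889 and 1.25 kb in the Kdm6b-cKO pair and none in the WT pair, and Gm5414 reached 0.544 kb in Kdm6b-cKO replicate 3 and was at 0 in the other libraries.

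Averaged over the 29 genes, 63.2% and 62.3% of the gene body was covered in the Kdm6b-cKO pair and 17.7% and 12.9% in the WT pair. The hair keratins stood at 80.3% and 82.1% in the knockout lists and at 34.6% and 12.3% in the WT lists. Simple-epithelial gene bodies were covered over 83.8% and 90.03% in the Kdm6b-cKO pair and 31.6% and 33.0% in the WT pair, and those of the inner root sheath over 62.7% and 72.3% in the former and 2.23% and 3.33% in the latter. Krt6b, uncovered in all libraries, was the gene without a higher value in the knockout lists. Single genes could differ between promoter and body, as Krt82, with 44.8% and 43.97% of its gene body covered in the Kdm6b-cKO pair beside a fully covered promoter.

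Base composition, which the choice of the cluster did not use, differed among the classes. Within TSS ± 3 kb the 29 genes had a median of 14.2 CpG per kb, with a range of 6.50 to 25.5, against 18.2 for all protein-coding genes. The median GC content was 50.2%, against 46.8%. The simple-epithelial genes, marked in every library, had a median of 22.7 CpG per kb. Krt18 had the highest value of the cluster, but Krt7 had only 15.3. Inner root sheath genes, free of the mark or nearly so in the WT pair, had a median of 11.5 CpG per kb. Krt87, covered in every library, had 20.7, the highest of the hair keratins. Other genes went the other way. Krt1, Krt77 and Gm49425 were marked in all 4 libraries at 14.2, 9.33 and 6.83 CpG per kb, and Krt79 and Krt80 were marked in none at 16.5 and 15.8. Neighbouring genes share long peaks and local composition, so these values are a description of 29 linked genes.

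Type I keratins, the partners of the type II chains, showed the mark in fewer genes. Of 26 type I promoters on the list, 13 and 11 were marked in the Kdm6b-cKO libraries and none in either WT library. Over all 21755 protein-coding genes the knockout lists marked 5747 and 5422 and the WT lists 4282 and 3549. The 4 with the largest difference were Krt15, Krt31, Krt27 and Krt17. Krt15 of basal keratinocytes had 4.42 and 4.28 kb in the Kdm6b-cKO pair, 0.352 kb in WT replicate 7 and none in WT replicate 9. Krt27, an inner root sheath keratin, had 3.41 and 2.66 kb in the Kdm6b-cKO pair and none in the WT pair, and the hair keratin Krt31 had 2.62 and 4.29 kb and none in the WT pair. Krt17, an activation keratin, had 2.45 and 1.80 kb and none in the WT pair.

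Regulators of epithelial and hair genes were for the most part marked in both genotypes. Of 12 such genes, 9 were marked in all 4 libraries, against 15.1% of all protein-coding genes, and 3 in none. In 7 the whole promoter was covered in every library. Among these were Hoxc13, known as an activator of hair keratin genes, and Gata3 of the inner root sheath. The 3 unmarked genes were Trp63 and Klf4, without a covered base, and Foxn1, with 0.313 kb in Kdm6b-cKO replicate 3 alone. The regulators with the largest differences were Lef1, at 4.71 and 5.86 kb in the Kdm6b-cKO pair and 4.31 and 3.21 kb in the WT pair, and Dlx3, at 6.001 kb in each Kdm6b-cKO library and 4.80 and 4.35 kb in the WT pair. Of 8 keratinocyte markers outside the cluster, 4 were marked in all libraries, against the same 15.1% of all genes. Of the others, Krt10 and Trp63 had no covered promoter base in any library. Krt14 was marked in Kdm6b-cKO replicate 3 alone and Sfn in both Kdm6b-cKO libraries alone. None of 10 fibroblast marker promoters held a covered base in any library. Most genes were unmarked, as 15497 of all 21755 protein-coding promoters were marked in no library. These markers show where the mark lies and not which genes are expressed, and the cell make-up of the cultures was not tested.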

How the data were processed

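The deposited files are lists of broad H3K27me3 peaks that the authors called in each library on its own, without pooling replicates. The submitters' processing notes name mm10 as the build, Bowtie2 2.3.5.1 (an aligner) and MACS2 2.2.7.1 (a peak caller), beside deepTools 3.5.1, SAMtools 1.9 and bcl2fastq. By the study's methods, libraries were subsampled to similar read numbers and broad peaks were called at q 0.01. How the input entered the calling is not given in the sources used here. The deposited values of each peak are its positions, a score, a fold ratio over background, and −log10 p and −log10 q values, all averaged by the authors' caller over the broad region. From these, covered lengths were computed here in Python 3.11.15 with numpy 2.4.6, for peaks on 19 autosomes and the X chromosome, and drawn with matplotlib 3.10.9. Peaks within a list did not overlap, and none ran past a chromosome end. The overlap functions were tested on simulated intervals. Sequences came from GRCm38.p6 and RefSeq.

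Samples were grouped by their titles, with 2 libraries a group, and the input library was not used here. The cluster, the keratin classes and the lists of type I keratins, regulators and markers were chosen with earlier results of these data known. No test was made. Values in every library are given for up to 20 marked genes by the largest difference in mean covered promoter length, for the best known gene of each class, and, of the type I keratins and regulators, for up to 4 each. A gene on the hair keratin list was not analysed here. Alternatives were equal numbers (22597) or equal covered length of the strongest peaks, −log10 q of at least 5, each library left out, promoters of ± 1 and ± 5 kb, all transcript starts, and other limits for a marked promoter.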

Additional observations from a re-analysis of the deposited data

How the results depend on the processing

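All values rest on 2 libraries a group and on peak lists without depth, so a peak that missed the authors' threshold cannot be told apart from an absent mark. The ratio to the genome-wide share and the class means were added after seeing the data. The difference in covered share of the cluster, 32.5 points, was 25.002 with equal numbers of peaks, 8.93 with equal covered length and 12.3 with −log10 q of at least 5. For the mean promoter share, 42.3 points, these were 33.7, 14.9 and 18.7. The promoters that both Kdm6b-cKO libraries marked but no WT library did, 13, were 7, 1 and 3, and those with both Kdm6b-cKO libraries above both WT libraries, 24, were 15, 7 and 6. The ratio to the genome-wide share differed by 4.61, and by 4.46, 3.82 and 5.50 under these settings. No difference changed its sign, but those of 2 of 6 classes were 0 with equal covered length and those of 3 of 6 with −log10 q of at least 5. With each library left out in turn these results ranged from 30.4 to 34.6 points, 38.0 to 46.6 points, 13 to 16 genes, 24 to 25 genes and 3.85 to 5.37. The other promoter widths, all transcript starts and the other limits moved none of the counts by over 1.5 times. No paired analysis was made, because the sample titles name no pairs between the groups.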

Other observations

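The cluster also holds 21 annotated records that are not protein-coding and that the comparison above does not use, 9 pseudogenes, 8 miRNA records and 4 long non-coding RNAs. Covered promoter length was higher in both Kdm6b-cKO than in both WT libraries at 15 of them, 7 were marked in both Kdm6b-cKO libraries alone, 6 in all libraries and 5 in none. Over all 32088 records of the annotation that are not protein-coding, these shares were 8.44%, 2.89%, 7.13% and 82.9%. Of the 21 records, 11 start inside a protein-coding gene of the cluster or within 3 kb of its start, so they share peaks with genes already described. Krt74, an inner root sheath keratin in other mammals and a pseudogene record in this annotation, had 0.527 and 1.58 kb of its promoter covered in the Kdm6b-cKO pair, 0.339 kb in WT replicate 7 and none in WT replicate 9. Its gene body was covered over 30.3% and 26.9% in the Kdm6b-cKO pair, 3.67% in WT replicate 7 and nothing in WT replicate 9. The long non-coding record Gm36026, which starts beside Krt8, had 5.67 and 5.49 kb in the Kdm6b-cKO pair and 4.02 and 2.99 kb in the WT pair, and Gm671, whose record overlaps that of Krt7, had 4.81 and 4.16 kb and 2.88 and 2.63 kb. Both were marked in all libraries, as were the simple-epithelial keratins next to them. The pseudogene Gm49434, between Krt76 and Krt4, had 4.18 and 4.83 kb in the Kdm6b-cKO pair and none in the WT pair. These records were chosen after their values were seen.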
